A study of Drosophila melanogaster with 18 samples.

Results

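The genes followed here are 36 genes through which the eye of Drosophila melanogaster senses light, other than the opsins, the light-absorbing receptors themselves. They were listed by function, from the light response, the making of visual pigment, the recycling of histamine and the structure of the photoreceptor and lens, by a rule with no threshold on a measured value. The list held 36 of the 13439 genes with values, all 36 had a row, and all 36 had a mean of at least 5 normalized reads and so were tested. Brains of virgin flies of the Oregon wild-type strain were sequenced to compare the sexes as young adults age. The 6 groups were females at 3 days (F3), 7 days (F7) and 14 days (F14) after eclosion, and males at 3 days (M3), 7 days (M7) and 14 days (M14), all reared on standard food, kept apart by sex since eclosion and given no other treatment. Each library was made from a pool of 100 dissected brains, so differences between single flies were not seen. There were 3 libraries in F3, M3, M7 and M14 and 2 in F7 and F14, from which the study had removed replicate 3 and replicate 1 as outliers.

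In the fly photoreceptor, rhodopsin struck by light switches on a Gq protein, whose alpha subunit activates phospholipase C. The enzyme splits a membrane lipid, the channels TRP and TRPL open, and the cell depolarizes and releases histamine onto neurons of the optic lobe. Arrestins then bind the active rhodopsin and end the response. Most photoreceptors lie in the retina, outside the brain, and send their axons into it, while small groups of light-sensing cells lie in the ocelli and in an eyelet at the edge of the optic lobe. How much of the retina, lamina or ocelli stayed on each dissected brain was not recorded in the sources used here.

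The libraries held 2924715 reads (M14 replicate 1) to 8664494 reads (M3 replicate 3), with a median of 6094046. Rank correlations between libraries of a group ran from 0.925 to 0.966 outside M14, where the lowest was 0.809. Markers of neurons were present in every library, with nSyb, a synaptic vesicle protein, between 2479 and 15220 normalized reads. The opsins were present as well. Their summed level ran from 11600 to 37010 in the 3-day libraries, from 3657 to 12810 in the 7-day libraries and from 3786 to 10670 in the 14-day libraries. The F3 libraries also stood apart in 5 gut enzymes, with a summed level of 4231 to 9178 against 107 to 1493 in all other libraries. Yolk protein and other fat body genes summed to 21880 to 160000 in females and to 3785 to 4752 in males.

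In both sexes the 36 genes stood mostly below their 3-day level at 7 and 14 days. Fold changes between 3 and 7 days were negative in 30 of 36 genes among females and in 34 of 36 among males, and those between 3 and 14 days in 31 and 29. Genes called lower in at least 1 of these comparisons included the visual G protein beta subunit Gbeta76C, the channels trp and trpl, the arrestins Arr1 and Arr2, the myosin kinase ninaC, and structural genes such as chp and retinin. A gene was called a differentially expressed gene (DEG) at an adjusted p under 0.1 (Benjamini-Hochberg over the 12448 genes tested, limma). Counts at an unadjusted p under 0.05 are given beside it, since the study worked with both thresholds. Counts of DEGs by DESeq2 or edgeR, or with libraries left out, cover the 36 genes alone. The share of all genes is not given for them, so they do not set the 36 genes apart from others. Log2 fold changes (LFCs) are older over younger flies or females over males, computed after adding 1 to the normalized reads, and errors of LFCs are standard errors of the fit. In a bulk sample fewer cells of a type and less RNA per cell cannot be told apart, and this holds for every change below.

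From 3 to 7 days in females (F3v7), 8 of the 36 genes were downregulated, against 0.739% of all genes, and 1 was upregulated, against 6.93%. The median LFC was −0.83 over the 36 genes and 0.12 over all genes tested. The 8 genes were Gbeta76C, CdsA, inaD, ninaC, t, e, chp and retinin, and the upregulated gene was trpgamma. At an unadjusted p under 0.05 there were 15 lower, against 3.55% of all genes, and 2 higher, against 16.1%. In 17 of the 36 genes both F7 libraries lay below all 3 F3 libraries, as in 10.6% of all genes. The adjusted calls rested on single libraries: 0 of the 36 genes passed without F3 replicate 1. Outside the 36, the F3v7 calls of the opsin Rh5 and the gut enzyme Amy-p were lost then too, and that of the gut enzyme Mal-A1 was not. Leaving out either F7 library leaves 1 library in F7. The calls did not hold without F7 replicate 2, and most did not without F7 replicate 1. At the unadjusted threshold 9 genes passed without F3 replicate 1, compared with 17 in all.

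Males showed the same direction over the same interval (M3v7). Here 7 of the 36 genes were downregulated, against 0.153% of all genes, and limma, DESeq2 and edgeR called 0 upregulated, against 0.0402% by limma. Downregulated genes numbered 11 by DESeq2 and 2 by edgeR, which called chp and retinin but not the other 5 genes. The 7 genes were Gbeta76C, trp, trpl, ninaC, chp, Cpn and retinin, and they made up 7 of the 19 genes downregulated in M3v7 out of 12448. The median LFC was −0.82, compared with −0.03 over all genes. At the unadjusted threshold 18 were lower, against 1.56%, and 0 higher by limma, against 1.44%. All 3 M7 libraries lay below all 3 M3 libraries in 25 of the 36 genes, compared with 6.16% of all genes. The adjusted count fell to 0 without M3 replicate 1 or without M3 replicate 2, to 3 without M3 replicate 3, and to 2 without M7 replicate 1 or without M7 replicate 3. The unadjusted count stayed between 15 and 18 whichever library was left out.

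Females and males at these ages share no libraries, but all groups entered 1 model and so share the estimate of each gene's spread. In M3v7 the call of trp was lost without F3 replicate 2 or F3 replicate 3, and that of Cpn without F3 replicate 2, F7 replicate 1 or F14 replicate 2, none of which is a male library. Of the genes downregulated, 4 were common to F3v7 and M3v7 (chp, Gbeta76C, ninaC and retinin), which is 50% of the female calls and 57.1% of the male calls, compared with 0.0803% of all genes. At the unadjusted threshold 14 genes were lower in both, which is 93.3% of the female and 77.8% of the male genes, compared with 0.37% of all genes tested. Whether the sexes differed in the size of the change was tested directly, as a difference of the changes. None of the 36 genes passed, against 0.546% of all genes, and at the unadjusted threshold 1 did by limma, against 15.2%. That gene was trpgamma, with a difference of 2.72 ± 0.73 (adjusted p = 0.112). DESeq2 called 1 of the 36 genes for this difference and edgeR 0. Without F7 replicate 1, M7 replicate 3 or M14 replicate 1, limma called 1.

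**Figure D1:**
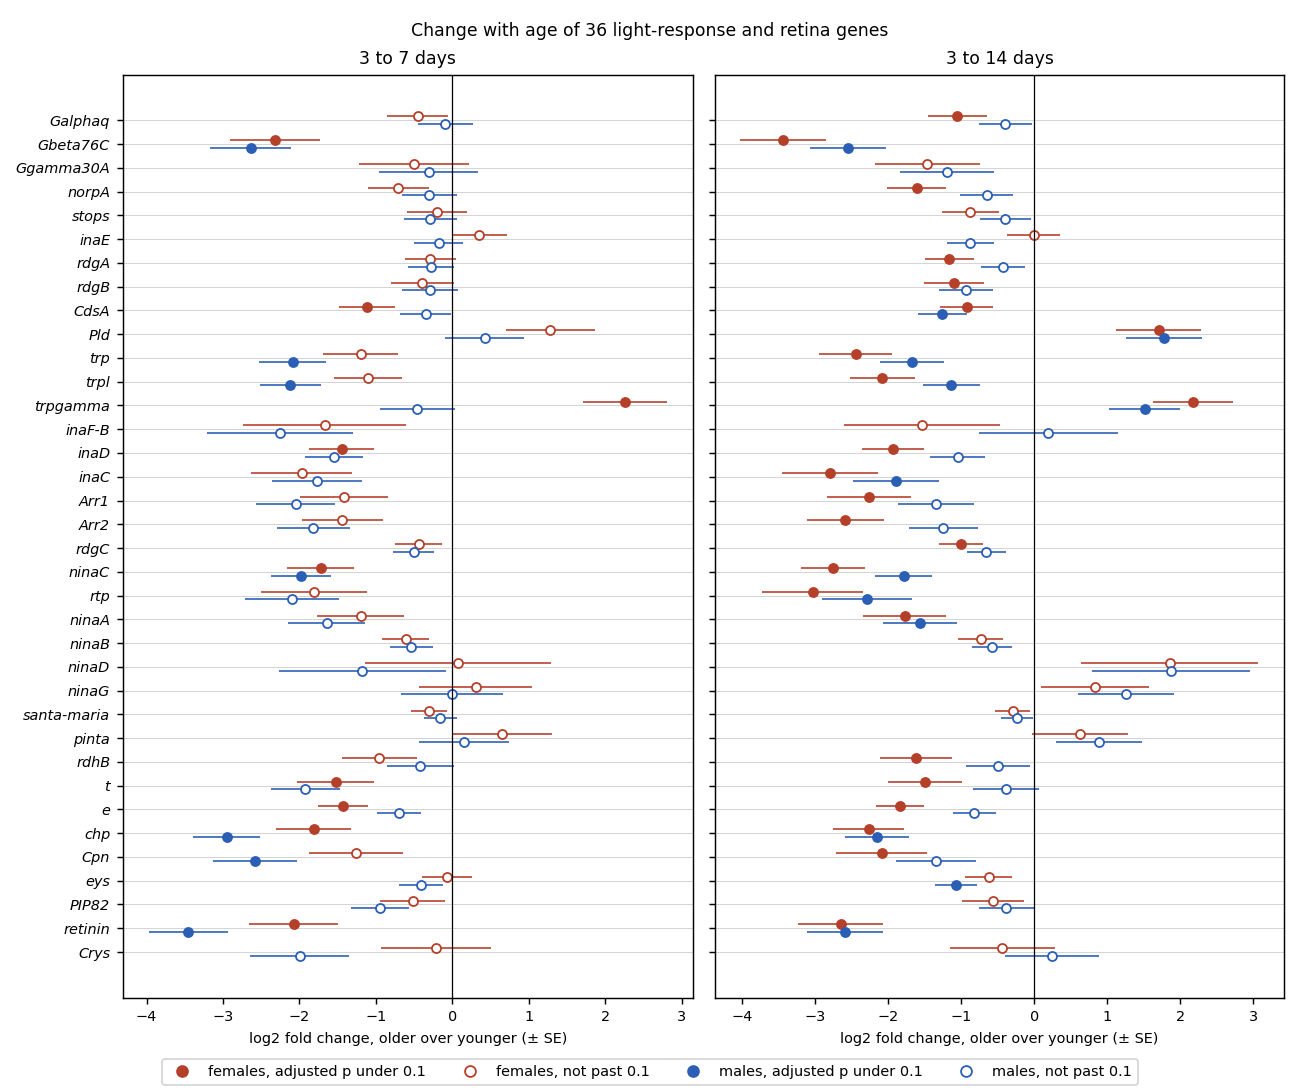
Log2 fold change of each of the 36 genes from 3 to 7 days (left) and from 3 to 14 days (right), in females and males, with bars of 1 standard error of the limma fit. From 3 to 7 days 30 of 36 genes in females and 34 of 36 in males lie left of 0.

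Of all comparisons, the one between 3-day and 14-day females (F3v14) had the most calls. Here 22 of the 36 genes were downregulated, against 4.61% of all genes, and 2 (Pld and trpgamma) were upregulated, against 17.1%. The median LFC was −1.48, compared with 0.15 for all genes, and in 26 genes both F14 libraries lay below all F3 libraries (17.5% of all genes). This comparison shares the F3 libraries with F3v7 and is not independent of it. Unadjusted, 24 genes were lower, against 8.3% of all genes, and 2 higher, against 22.3%. The adjusted count of 24 was 14 without F3 replicate 1. These calls did not hold without F14 replicate 3, a run that leaves 1 library in F14. The unadjusted count of 26 fell as well in that run.

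In M3v14, 11 of the 36 genes were downregulated, against 5.43% of all genes, and 2 were upregulated, against 6.09%. The 11 were Gbeta76C, CdsA, trp, trpl, inaC, ninaC, rtp, ninaA, chp, eys and retinin, and the 2 were again Pld and trpgamma. The median LFC was −0.85, compared with 0.24 for all genes. Of the downregulated genes 10 were shared by F3v14 and M3v14, which is 45.5% of the female and 90.9% of the male calls, compared with 1.03% of all genes. DESeq2 called 21 of the 36 genes in M3v14 and edgeR 4. The adjusted count of 13 fell to 0 without M3 replicate 2 or without M14 replicate 2, to 1 without M14 replicate 1, to 3 without M3 replicate 3, to 5 without F14 replicate 2 or without F14 replicate 3, and to 6 without M7 replicate 2. Unadjusted, 19 genes were lower, against 11.8%, and 2 higher, against 18.4%, and the sum of 21 became 16 to 22 when 1 library was left out. None of the 36 genes passed the test of the difference between the sexes (F3v14 against M3v14), which 0% of all genes passed, and 1 did at the unadjusted threshold, against 5.33%. DESeq2 and edgeR called 0 here as well.

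Between 7 and 14 days no gene was called in females (F7v14, 0% of all genes), and 3 of the 36 were lower at the unadjusted threshold, against 1.09%: rdgA, trp and ninaC. DESeq2 and edgeR called 0 of the 36. In males (M7v14) 6 of the 36 genes were upregulated, against 14.7% of all genes, and 1 (CdsA) was downregulated, against 6.54%. The 6 were trpgamma, Pld, inaF-B, ninaD, t and Crys. Their share was close to that of all genes, so these calls do not set the 36 genes apart. Unadjusted, 8 were higher, against 23.1%, and 3 lower, against 11.7%. edgeR called 0 of the 36 in M7v14. The 7 calls by limma became 0 without M7 replicate 1, M7 replicate 2, M14 replicate 1 or M14 replicate 2, 4 without M3 replicate 3, and 3 without F14 replicate 2 or without F14 replicate 3. The difference of the 7 to 14 day changes between the sexes was not called for any gene (0%). At the unadjusted threshold 8 of the 36 passed, against 7.67%, 7 of them with the lower change in females, and DESeq2 and edgeR called 0.

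Between sexes of the same age few of the 36 genes differed. In F3vM3 only trpgamma passed, lower in females, against 8.34% of all genes, and none was higher, against 3.04%, compared with 2 higher by DESeq2 and 0 by edgeR. With unadjusted p values, norpA and rdgA were higher in females, against 7.36% of all genes, and trpgamma was lower, against 15.9%. The adjusted count of 1 was 0 without F3 replicate 1 or without M3 replicate 1, 3 without M14 replicate 1, and 6 without F3 replicate 3. In F7vM7 limma called 0 of the 36 genes, against 0.0562% of all genes, and DESeq2 and edgeR called 0 too. At the unadjusted threshold 9 were higher in F7 than in M7, against 4.43% of all genes: rdgA, trp, trpl, Arr1, t, chp, Cpn, retinin and Crys. The 9 became 2 without M7 replicate 1 and 6 without M7 replicate 3. The count also fell without F7 replicate 2, a run that leaves 1 library in F7. Both F7 libraries lay above all 3 M7 libraries in 13 of the 36 genes, compared with 12.7% of all genes. At 14 days (F14vM14) limma, DESeq2 and edgeR called 0 of the 36, against 0.329% of all genes by limma, and 2 (trpgamma and e) were lower in females at the unadjusted threshold, against 2.69%.

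**Figure D2:**
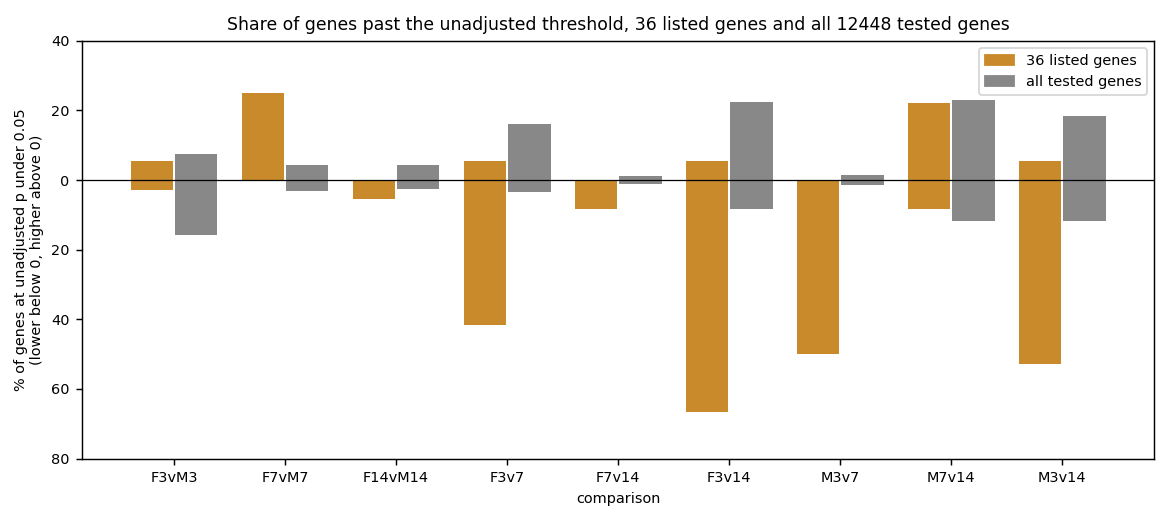
Share of genes past an unadjusted p of 0.05 in each of 9 comparisons, for the 36 genes (coloured bars) and for all 12448 genes tested (grey bars), with lower genes below 0 and higher genes above 0. In M3v7, 18 of the 36 genes were lower, compared with 1.56% of all genes.

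The levels of the 36 genes spanned a wide range. Per kb of exon, Arr2 was the most abundant, with a mean over the 16 libraries of 4272 normalized reads per kb, followed by Ggamma30A with 1764 and Arr1 with 1502. The least abundant were inaF-B with 3.31, ninaD with 8.87, Crys with 19.4 and trpgamma with 20.7 normalized reads per kb. The values given below for single libraries are normalized reads per gene, in the order of the replicate numbers, which are 1 and 2 in F7 and 2 and 3 in F14. They are printed for the 16 genes with the smallest adjusted p, and group means are given for the others. Coordinates are those of release 6 of the fly genome.

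The first role in the cascade is that of the G protein. Gbeta76C (CG8770, chromosome 3L, 19687637 to 19689992), the beta subunit of the visual Gq protein, was at 1275, 854 and 647 in F3, 138 and 226 in F7, and 155 and 42.4 in F14. In males it was at 932, 545 and 336 in M3, 46.2, 173 and 85.2 in M7, and 81.2, 60.1 and 170 in M14. Every library of 7 or 14 days lay below every 3-day library of the same sex. Its LFCs were −2.32 ± 0.59 (adjusted p = 0.0412) in F3v7 and −2.64 ± 0.53 (adjusted p = 0.0722) in M3v7. They were −3.43 ± 0.59 (adjusted p = 0.00579) in F3v14 and −2.55 ± 0.53 (adjusted p = 0.0554) in M3v14. The alpha subunit Galphaq fell in F3v14 alone, from 2618 ± 408 (mean ± SD, n = 3) to 1335 ± 663 (n = 2), with an LFC of −1.05 ± 0.40 (adjusted p = 0.0873). That call was lost in 7 of 16 runs that left out 1 library. Exons of Galphaq share 3050 bases with those of CG45086 on the same strand, so reads there may be split between them. The gamma subunit Ggamma30A, the second most abundant of the 36 per kb, passed in no comparison, with means of 40280 ± 13780 in F3 and 15200 ± 8466 in F14.

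Downstream of the G protein stand phospholipase C and the enzymes of the lipid cycle. Of these, 4 of 7 were lower in F3v14, against 4.61% of all genes, and 1 of 7 in M3v14, against 5.43%. The phospholipase C gene norpA (CG3620, chromosome X, 4322626 to 4365408) was at 10190, 8782 and 4615 in F3, 6470 and 3216 in F7, and 3126 and 1906 in F14. In males it was at 3729, 4013 and 4424 in M3, 3184, 3412 and 3233 in M7, and 1744, 3009 and 3249 in M14. F3 replicate 3 lay below F7 replicate 1, and both F14 libraries lay below F7 and F3. Only F3v14 was called, with an LFC of −1.61 ± 0.40 (adjusted p = 0.0173). The diacylglycerol kinase rdgA (CG42667, chromosome X, 8907068 to 9029476) was at 8752, 6111 and 5389 in F3, 6530 and 4487 in F7, and 3585 and 2433 in F14. Its levels in males were 4163, 3338 and 4011 in M3, 3093, 3295 and 3059 in M7, and 2053, 3193 and 3498 in M14. Both F14 libraries lay below all other female libraries, whereas M14 overlapped with M3 and M7. The LFC was −1.16 ± 0.34 (adjusted p = 0.0321) in F3v14 and −0.43 ± 0.30 (adjusted p = 0.316) in M3v14.

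The other enzymes of the lipid cycle did not move as one. CdsA, the CDP-diacylglycerol synthase that rebuilds the membrane lipid, fell in F3v7 (−1.12 ± 0.37, adjusted p = 0.0967), F3v14 (−0.93 ± 0.37, adjusted p = 0.0996), M7v14 (−0.91 ± 0.33, adjusted p = 0.0859) and M3v14 (−1.26 ± 0.33, adjusted p = 0.0761). These calls were lost in 13, 11, 7 and 7 of 16 runs that left out 1 library. Each was also lost with edgeR and with quantile normalization. Means of CdsA were 2857 ± 185 in F3, 1361 ± 500 in F7 and 1504 ± 138 in F14, so the F14 mean was no lower than that of F7. In males they were 2633 ± 684 in M3, 2029 ± 181 in M7 and 1188 ± 551 in M14. The lipid transfer protein rdgB fell in F3v14 (−1.10 ± 0.41, adjusted p = 0.0821). Pld, a phospholipase D, went the other way and was upregulated in F3v14 (1.71 ± 0.58, adjusted p = 0.0596), M7v14 (1.36 ± 0.52, adjusted p = 0.0931) and M3v14 (1.78 ± 0.52, adjusted p = 0.0820). Pld was at 65.0 ± 13.0 in F3 and 405 ± 287 in M14, where replicate 1 alone reached 732. The diacylglycerol lipase inaE and stops, which in photoreceptors keeps the norpA protein stable, passed in no comparison.

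Of the channels, trp and trpl fell after 3 days, while their relative trpgamma rose in females and, at 14 days only, in males. The gene trp (CG7875, chromosome 3R, 29914521 to 29920289), which encodes the main light-activated channel, was at 2053, 963 and 857 in F3, 418 and 643 in F7, and 362 and 131 in F14. In males trp was at 709, 818 and 674 in M3, 93.4, 302 and 176 in M7, and 266, 136 and 327 in M14. The 3-day libraries did not overlap with any older library of the same sex. Its LFC was −2.09 ± 0.44 (adjusted p = 0.0974) in M3v7 and −2.45 ± 0.49 (adjusted p = 0.00871) in F3v14, while F3v7, at −1.20 ± 0.49 (adjusted p = 0.182), did not pass. The second channel, trpl (CG18345, chromosome 2R, 9753697 to 9765518), was at 2937, 1242 and 1257 in F3, 714 and 839 in F7, and 592 and 260 in F14. Male libraries held 1183, 1106 and 938 in M3, 137, 423 and 256 in M7, and 499, 362 and 643 in M14. As for trp, M7 replicate 1 was the lowest library of the males, and no 3-day library overlapped with an older one of its sex. LFCs of trpl were −2.12 ± 0.39 (adjusted p = 0.0539) in M3v7, −2.08 ± 0.44 (adjusted p = 0.0101) in F3v14 and −1.13 ± 0.39 (adjusted p = 0.0984) in M3v14.

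The channel subunit trpgamma (CG5996, chromosome 2L, 16663454 to 16676701) was scarce and had the opposite pattern in females. It was at 22.4, 22.8 and 19.4 in F3, 78.5 and 145 in F7, and 105 and 97.4 in F14. In males it was at 148, 55.9 and 61.9 in M3, 36.8, 74.8 and 71.0 in M7, and 499, 193 and 128 in M14. All F3 libraries lay below every other library, and M14 replicate 1 held the highest value. LFCs were 2.26 ± 0.55 (adjusted p = 0.0352) in F3v7, 2.18 ± 0.55 (adjusted p = 0.0174) in F3v14, 1.97 ± 0.49 (adjusted p = 0.0761) in M7v14 and 1.51 ± 0.49 (adjusted p = 0.0910) in M3v14. In F3vM3 it was −1.85 ± 0.49 (adjusted p = 0.0343). The male means of trpgamma were 88.6 in M3, 60.9 in M7 and 273 in M14, so it did not rise from 3 to 7 days. Its calls in M7v14 and M3v14 were lost without M14 replicate 1. The small membrane protein gene inaF-B, whose product TRP needs, was nearly silent, with 0 to 74.0 normalized reads and 2 of 3 M7 libraries at 0. It shares exons with inaF-A, inaF-C and inaF-D on the same strand, so its value is uncertain.

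The scaffold inaD and the kinase inaC hold and regulate the channels. The PDZ scaffold inaD (CG3504, chromosome 2R, 22855688 to 22858794) was at 942, 356 and 390 in F3, 152 and 226 in F7, and 176 and 98.6 in F14. In males inaD was at 441, 413 and 303 in M3, 96.3, 181 and 124 in M7, and 269, 123 and 187 in M14. The 3-day libraries lay above all older ones in each sex, with F3 replicate 1 far above the other 2 of its group. LFCs of inaD were −1.45 ± 0.42 (adjusted p = 0.0665) in F3v7 and −1.94 ± 0.42 (adjusted p = 0.0105) in F3v14, and −1.55 ± 0.38 (adjusted p = 0.252) in M3v7, which did not pass. The eye protein kinase C, inaC (CG6518, chromosome 2R, 16898535 to 16901575), was at 1415, 379 and 353 in F3, 83.9 and 253 in F7, and 161 and 41.2 in F14. Levels of inaC in males were 391, 326 and 202 in M3, 82.1, 136 and 56.8 in M7, and 114, 41.3 and 105 in M14. F3 replicate 1 was again the highest library, and all 3-day libraries lay above the older ones of their sex. LFCs of inaC were −2.80 ± 0.66 (adjusted p = 0.0137) in F3v14 and −1.89 ± 0.59 (adjusted p = 0.0891) in M3v14.

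**Figure D3:**
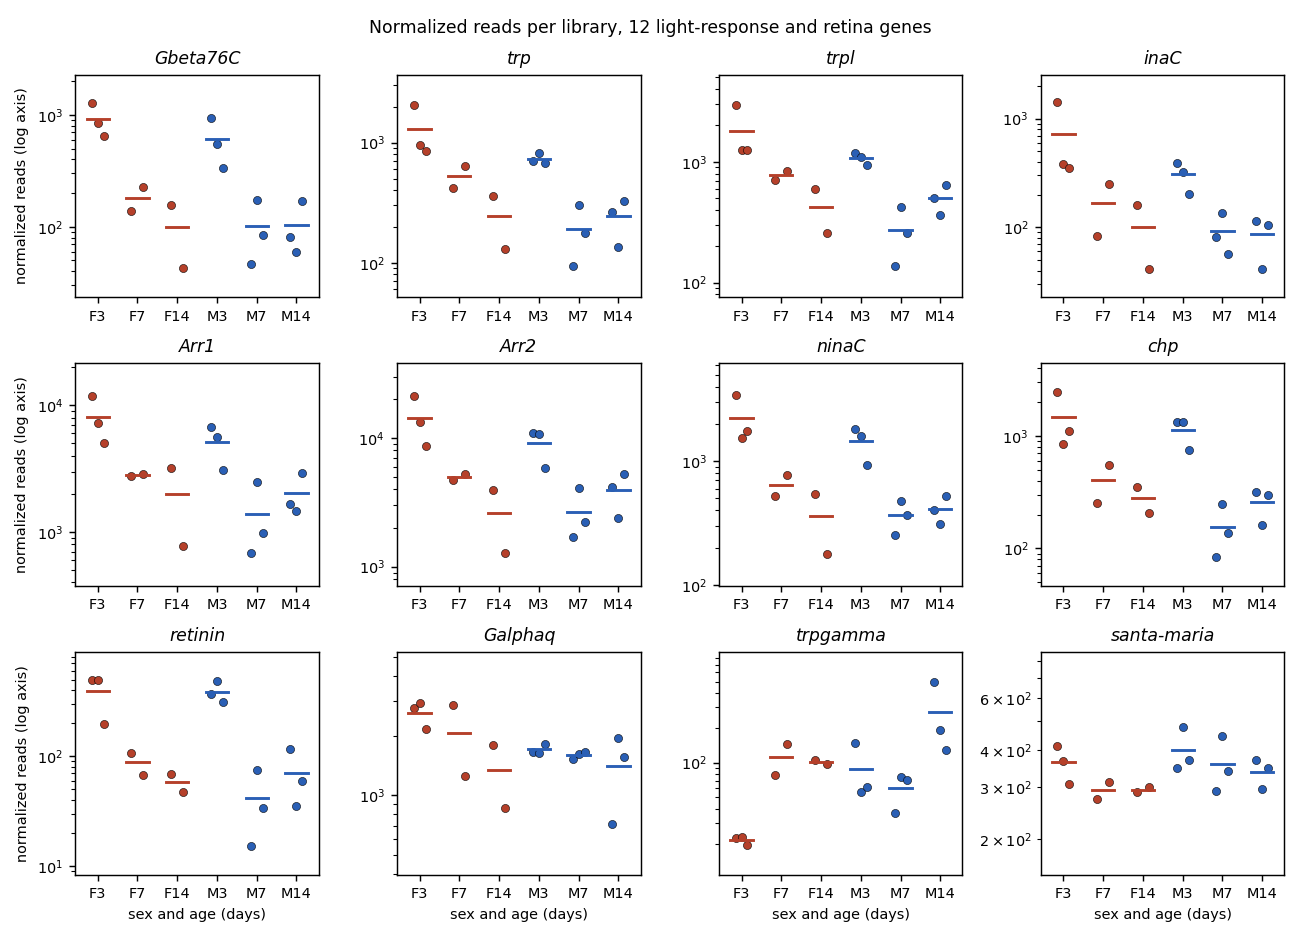
Normalized reads of 12 genes in each of the 16 libraries, on a log axis, by group, with a point for each library and a line at the group mean. In trp, trpl, Arr1, Arr2, ninaC, chp and retinin the 3-day libraries lie above the older libraries of their sex, whereas in trpgamma the F3 libraries are the lowest.

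Genes that shut rhodopsin off fell together in F3v14, where all 5 of 5 passed, against 4.61% of all genes. In M3v14 2 of 5 passed, against 5.43%. The F3v14 calls did not hold without F14 replicate 3, a run that leaves 1 library in F14. Arr2 (CG5962, chromosome 3L, 8647261 to 8648936), the major arrestin, was at 21160, 13390 and 8736 in F3, 4714 and 5260 in F7, and 3949 and 1278 in F14. In males Arr2 was at 10920, 10710 and 5847 in M3, 1704, 4086 and 2242 in M7, and 4142, 2376 and 5242 in M14. No 3-day library overlapped with an older one of its sex, although M3 replicate 3 came close to M14 replicate 3. The LFC of Arr2 was −2.59 ± 0.53 (adjusted p = 0.00896) in F3v14, and M3v7, at −1.82 ± 0.47 (adjusted p = 0.339), did not pass. Arr1 (CG5711, chromosome 2L, 18078269 to 18081307), the other visual arrestin, was at 11920, 7245 and 5052 in F3, 2784 and 2868 in F7, and 3203 and 780 in F14. Arr1 in males was at 6793, 5621 and 3071 in M3, 677, 2461 and 986 in M7, and 1668, 1469 and 2914 in M14. As for Arr2, F3 replicate 1 was the highest library and no 3-day library overlapped with an older one of its sex. Arr1 had an LFC of −2.26 ± 0.58 (adjusted p = 0.0187) in F3v14 and −2.05 ± 0.51 (adjusted p = 0.288) in M3v7, and only the first passed.

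The myosin kinase ninaC (CG5125, chromosome 2L, 7377702 to 7384344), which acts in the rhabdomere, was at 3433, 1542 and 1742 in F3, 525 and 770 in F7, and 540 and 177 in F14. In males ninaC was at 1824, 1608 and 934 in M3, 252, 481 and 366 in M7, and 407, 313 and 519 in M14. It passed in all 4 comparisons with 3-day flies, and no 3-day library overlapped with an older one. LFCs were −1.72 ± 0.44 (adjusted p = 0.0435) in F3v7, −1.98 ± 0.39 (adjusted p = 0.0722) in M3v7, −2.76 ± 0.44 (adjusted p = 0.00577) in F3v14 and −1.79 ± 0.39 (adjusted p = 0.0631) in M3v14. Retinophilin, encoded by rtp (CG10233, chromosome 3R, 5236092 to 5237315), binds the ninaC protein, and rtp was at 2330, 1051 and 282 in F3, 300 and 211 in F7, and 159 and 72.4 in F14. In males rtp was at 656, 475 and 262 in M3, 52.9, 206 and 92.7 in M7, and 56.9, 78.8 and 150 in M14. F3 was the most scattered group of rtp, and its replicate 3 lay below F7 replicate 1. The gene passed in F3v14 (−3.03 ± 0.69, adjusted p = 0.0119) and in M3v14 (−2.29 ± 0.62, adjusted p = 0.0781). Of its 960 exonic bases, 197 overlap with Mms19 on the other strand. The rhodopsin phosphatase rdgC fell in F3v14 (−1.004 ± 0.30, adjusted p = 0.0381), from 602 ± 97.7 in F3 to 312 ± 138 in F14.

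Of the 7 genes of visual pigment synthesis, 2 were downregulated in F3v14, against 4.61% of all genes, and 1 in M3v14, against 5.43%. The Rh1 chaperone ninaA fell in F3v14 (−1.78 ± 0.57, adjusted p = 0.0466) and M3v14 (−1.56 ± 0.51, adjusted p = 0.0918). Its mean was 219 ± 25.5 in F3 and 227 ± 105 in M3, and 82.8 ± 76.5 in F14 and 72.3 ± 22.0 in M14. All its 871 exonic bases lie within CG15824 on the other strand, and the library kit does not mark strand, so the reads of the pair cannot be told apart. The retinol dehydrogenase rdhB fell in F3v14 (−1.61 ± 0.49, adjusted p = 0.0387). The carotenoid uptake receptor ninaD was scarce, at 0 to 54.5 normalized reads, and was upregulated in M7v14 (3.05 ± 1.09, adjusted p = 0.0839). The carotenoid oxygenase ninaB, the chromophore enzyme ninaG, the scavenger receptor santa-maria and the retinoid-binding protein pinta passed in no comparison. Of these, santa-maria kept the narrowest range, with 272 to 477 normalized reads over all 16 libraries.

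Histamine released by photoreceptors is taken up by glia and joined to beta-alanine by the product of e (ebony), and freed again in the photoreceptor by that of t (tan). The gene e (CG3331, chromosome 3R, 21229839 to 21237177) was at 302, 352 and 169 in F3, 122 and 76.5 in F7, and 78.2 and 67.4 in F14. In males e was at 196, 266 and 243 in M3, 159, 128 and 146 in M7, and 151, 119 and 128 in M14. The 3-day libraries lay above the older ones in each sex, and in F14 both libraries lay below all 3 of M14. LFCs of e were −1.43 ± 0.33 (adjusted p = 0.0323) in F3v7 and −1.84 ± 0.33 (adjusted p = 0.00579) in F3v14, while M3v7, at −0.70 ± 0.29 (adjusted p = 1.00), did not pass. The gene t fell in F3v7 (−1.52 ± 0.50, adjusted p = 0.0972) and F3v14 (−1.49 ± 0.50, adjusted p = 0.0574) and rose in M7v14 (1.54 ± 0.45, adjusted p = 0.0761). The F3v7 call of t was lost in 12 of 16 runs that left out 1 library, the F3v14 call in 3 and the M7v14 call in 4. Means of t in males were 132 ± 33.2 in M3, 37.2 ± 19.1 in M7 and 101 ± 28.4 in M14.

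Among structural genes, chp and retinin had the smallest adjusted p values of the 36 in M3v7. Chaoptin, the product of chp (CG1744, chromosome 3R, 31204180 to 31210730), is an adhesion protein of the rhabdomere, and chp was at 2444, 842 and 1096 in F3, 251 and 553 in F7, and 353 and 208 in F14. In males chp was at 1328, 1328 and 752 in M3, 84.0, 247 and 136 in M7, and 319, 160 and 296 in M14. M7 held the 2 lowest values of all, and no 3-day library overlapped with an older one of its sex. In M3v7 chp was 7.73-fold lower, an LFC of −2.95 ± 0.44 (adjusted p = 0.0133). It also passed in F3v7 (−1.81 ± 0.49, adjusted p = 0.0528), F3v14 (−2.27 ± 0.49, adjusted p = 0.0102) and M3v14 (−2.15 ± 0.44, adjusted p = 0.0554). The corneal protein gene retinin (CG13057, chromosome 3L, 16331933 to 16332789) was at 493, 493 and 198 in F3, 108 and 67.8 in F7, and 69.0 and 47.4 in F14. Levels of retinin in males were 366, 489 and 310 in M3, 15.1, 75.5 and 33.6 in M7, and 116, 35.0 and 59.6 in M14. As for chp, M7 replicate 1 was the lowest library, and the ages did not overlap in either sex between 3 days and later. The LFC was −3.45 ± 0.52 (adjusted p = 0.0133) in M3v7, a 10.9-fold decrease, and −2.07 ± 0.58 (adjusted p = 0.0575) in F3v7. In F3v14 it was −2.65 ± 0.58 (adjusted p = 0.0106), and in M3v14 it was −2.59 ± 0.52 (adjusted p = 0.0554).

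Calphotin, encoded by Cpn (CG4795, chromosome 3R, 12162887 to 12166186), binds calcium in photoreceptors, and Cpn was at 734, 324 and 177 in F3, 132 and 159 in F7, and 131 and 49.9 in F14. Cpn in males was at 293, 307 and 208 in M3, 17.0, 70.4 and 67.3 in M7, and 179, 66.3 and 94.3 in M14. The lowest 3-day values lay close to the highest older ones, in F3 replicate 3 and F7 replicate 2 and in M3 replicate 3 and M14 replicate 1. It passed in M3v7 (−2.58 ± 0.55, adjusted p = 0.0996) and F3v14 (−2.09 ± 0.62, adjusted p = 0.0345). The gene eys, whose product opens the space between rhabdomeres, passed in M3v14 (−1.07 ± 0.29, adjusted p = 0.0781), with means of 3398 ± 230 in M3 and 1713 ± 703 in M14. The call of eys was lost in 7 of 16 runs that left out 1 library, and with edgeR and quantile normalization. The lens crystallin gene Crys passed in M7v14 (2.24 ± 0.64, adjusted p = 0.0761). PIP82 passed in no comparison.

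Other genes of the light response, from a separate list of 20, had median LFCs closer to 0. Of the 20, 1 was lower in F3v7, 3 in F3v14, 1 in M3v7 and 3 in M3v14. The shares of all genes were 0.739%, 4.61%, 0.153% and 5.43%. Median LFCs of the 20 were −0.23, −0.54, −0.15 and −0.51. The gene that passed in all 4 was Pdh, the photoreceptor dehydrogenase that regenerates chromophore, with LFCs of −1.66 ± 0.41 (adjusted p = 0.0385) in F3v7 and −1.80 ± 0.37 (adjusted p = 0.0797) in M3v7. These calls were lost in F3v7 without F3 replicate 1, F7 replicate 1 or F7 replicate 2 (adjusted p up to 0.626) and in F3v14 without F14 replicate 3 (adjusted p = 0.151). In M3v7 they were lost without F3 replicate 2, any M3 library, M7 replicate 1 or M7 replicate 3 (adjusted p up to 0.621), and in M3v14 without either F14 library, M3 replicate 2 or 3, or M14 replicate 1 or 2 (adjusted p up to 0.284). Of 7 genes of histamine signalling (among them the synthase Hdc and the receptors ort and HisCl1) none was called in F3v7, F3v14, M3v7 or M3v14 by limma, with 1 lower in F3v7, 1 lower in F3v14, 0 in M3v7, and 2 lower and 1 higher in M3v14 at the unadjusted threshold. Their median LFC was 0.11 in M3v14, with 4 of the 7 above 0.

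Of 6 transcription factors of photoreceptors, none was called in these 4 comparisons. In M7v14, where 14.7% of all genes were upregulated, gl and ss, which direct the fate of photoreceptors, were among them (1.50 ± 0.48, adjusted p = 0.0761 and 1.95 ± 0.62, adjusted p = 0.0761). Normalized reads of ss were 17.9, 74.0 and 112 in M7 and 560, 156 and 103 in M14, and those of gl were 82.1, 87.0 and 144 in M7 and 544, 312 and 141 in M14. Both genes were highest in M14 replicate 1, and the groups overlapped. Without that library the LFCs were 1.04 for gl (adjusted p = 0.414) and 1.24 for ss (adjusted p = 0.417), and both calls were also lost without M7 replicate 1, M7 replicate 2 or M14 replicate 2.

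The opsins moved mostly in the same direction as the 36 genes. LFCs were negative in 6 of 7 in F3v7, 6 in F3v14, 7 in M3v7 and 6 in M3v14. Rh7 did not fall in females, with 219, 272 and 420 normalized reads in F3 and 350 and 421 in F14. In M7v14 3 of 7 opsins (Rh5, Rh6 and Rh7) were upregulated, against 14.7% of all genes. Each of these calls was lost without M7 replicate 1, M7 replicate 2, M14 replicate 1 or M14 replicate 2. The median LFC of the 7 opsins was −1.58 in F3v7, −2.09 in F3v14, −2.29 in M3v7 and −1.14 in M3v14. In F3v14 6 of 7 were downregulated, against 4.61% of all genes, with ninaE (Rh1), the main opsin, at −2.09 ± 0.67 (adjusted p = 0.0464). Rh5 was the opsin called in both F3v7 (−2.13 ± 0.53, adjusted p = 0.0382) and M3v7 (−2.42 ± 0.47, adjusted p = 0.0676). The call of ninaE and that of Rh5 in F3v7 were lost without F3 replicate 1, among others. That of Rh5 in M3v7 was lost without M3 replicate 1 or 2 or M7 replicate 1 or 3. Markers of other cell types are given beside the opsins. The 5 glial markers had a median LFC of −1.32 in F3v7, −1.92 in F3v14, −0.47 in M3v7 and −0.996 in M3v14, with 2, 3, 0 and 2 downregulated. The 6 neuronal markers had a median of −0.28 in F3v7, −0.96 in F3v14, −0.23 in M3v7 and −0.95 in M3v14, with Syn downregulated in F3v14 and no other call. The 5 gut enzymes were all downregulated in F3v7 and F3v14, and 2 were upregulated in M3v7. Of 5 muscle genes 2 were downregulated in F3v14 and 4 in M3v14, and of 7 fat body genes 5 were upregulated in F3v14 and 1 in M3v14. The muscle genes had a median LFC of −0.62 in F3v7, −1.15 in F3v14, −0.56 in M3v7 and −1.69 in M3v14. The 4 antennal genes gave no call, with medians of 0.04 in F3v7, −1.73 in F3v14, −0.61 in M3v7 and −0.72 in M3v14. The 8 genes of retinal pigment cells summed to 621 to 939 at 3 days and 725 to 1147 later. Their medians were 0.39 in F3v7, 0.49 in F3v14, 0.19 in M3v7 and 0.25 in M3v14, and none was called in F3v7 or M3v7. In F3v14 cn was upregulated (4.03, adjusted p = 0.0222) and pr downregulated (−0.81, adjusted p = 0.0752). In M3v14 st was upregulated (2.59, adjusted p = 0.0902). The call of pr was lost without F3 replicate 1 and that of st without M14 replicate 1, and cn was at 0 in 1 library. The part of these cell types in the changes of the 36 genes was not tested.

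Replicate pools of the same sex and age also differed from each other in these genes. After the group mean was subtracted from log2(normalized reads + 1), each gene was correlated with ninaE over the 16 libraries, and p values came from an exact permutation of all 5184 orders of libraries within groups. All 36 genes had a positive r, with a median of 0.43, compared with 0.02 over the 12447 genes tested against ninaE, the 36 included. With quantile normalization r was positive in 28 of the 36, and with a pseudocount of 5 in 35. At an unadjusted p under 0.05, 16 of the 36 genes were positively correlated, against 0.723% of all genes, and with quantile normalization 19 were, against 2.84%. None passed after adjustment over all genes (0%), where the smallest p the test can give is 0.000193. Arr1 had an r of 0.960 (Spearman's rho 0.982, permutation p = 0.000193 for each), trpl 0.947 (rho 0.938, permutation p = 0.000579 for each) and Gbeta76C 0.935 (rho 0.947, permutation p = 0.000193 for each). For chp r was 0.800 (permutation p = 0.00424) and rho 0.794 (permutation p = 0.00424). At the other end r was 0.221 for Galphaq (permutation p = 0.493), 0.029 for CdsA (permutation p = 0.924), 0.055 for e (permutation p = 0.836) and 0.012 for Pld (permutation p = 0.966). The corresponding rho values were 0.229 (permutation p = 0.470), 0.121 (permutation p = 0.649), 0.056 (permutation p = 0.838) and 0 (permutation p = 1.00). The 2 libraries farthest from the median of ninaE were F3 replicates 1 and 2, and without them r was positive in 35 genes, with −0.175 for e (permutation p = 0.501). In this set 11 genes were correlated at the unadjusted threshold, against 0.578% of all genes, with r of 0.956 for Arr1 and 0.981 for trpl. These 36 relations share the same libraries and are not independent.

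**Figure D4:**
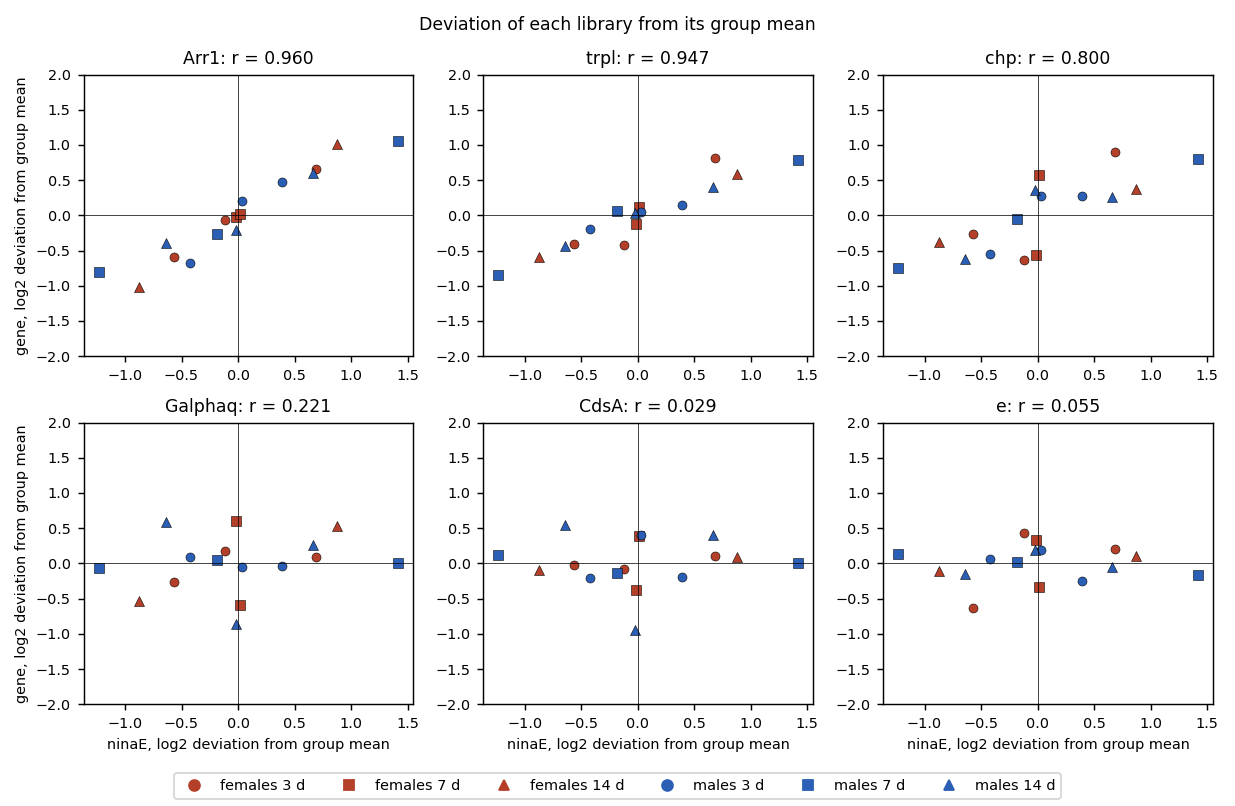
Deviation of each library from its group mean on the log2 scale, for ninaE (x axis) and 6 of the 36 genes (y axis), with a point for each of the 16 libraries. Arr1, trpl and chp lie along a rising line (r of 0.960, 0.947 and 0.800), whereas Galphaq, CdsA and e do not (0.221, 0.029 and 0.055).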

How the data were processed

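RNA of pooled brains was compared between 6 groups of sex and age, in 16 libraries that were assigned from their column names and the sample labels. The submitters' processing notes name Trimmomatic (0.39) for trimming, STAR (2.7.3a) for mapping and DESeq2 (2.10) with R 2.14.1, in which the authors normalized the reads. The deposited signal values are these normalized reads, and the counting tool is not given in the sources used here. Dividing by the value of 1 read gave whole reads in 100% of values (tolerance 1e-06), and these recovered reads entered DESeq2 and edgeR. TruSeq v2 libraries do not mark strand.

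Of 13439 rows, 13434 matched a RefSeq annotation symbol and 4 a synonym. Values were compared as log2(normalized reads + 1) with limma 3.58.1 (moderated test with the variance trend, R 4.3.3) for 12448 genes whose mean reached 5. All groups entered 1 model, which gave 3 comparisons between sexes, 6 between ages and 3 differences of changes. Adjusted p values follow Benjamini and Hochberg over all genes tested. The study itself used Wald tests in DESeq2, which are given as an alternative. The study describes the pools of a group as biological replicates, and p values measure the spread between these pools. Correlations with ninaE used every order of libraries within groups and were adjusted over all genes tested, which was chosen after the data were seen in place of a planned adjustment over the 36 genes.

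The 36 genes, the other lists and the tests were chosen with earlier results of these data known. Values in single libraries are printed for the 16 genes with the smallest adjusted p among those called in at least 1 of the 12 comparisons, and non-members are named from fixed lists. Of 117 listed symbols, 116 had a row. Alternatives were DESeq2 1.42.0, edgeR 4.0.16, pseudocounts of 0.5 and 5, no filter and a mean of at least 20, quantile normalization, only the groups compared, a replicate block, other thresholds and leaving out libraries. Python 3.11.15 with pandas 2.3.3, numpy 2.4.6, scipy 1.17.1 and matplotlib 3.10.9 was used for tables and figures.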

Additional observations from a re-analysis of the deposited data

How the results depend on the processing

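Of 61 calls on single genes among the 36, 1264 of 1706 repeats under other settings or without single libraries stayed past the threshold and 442 did not. None changed sign, but many of these repeats could not change it. Another threshold or filter, or leaving out a library outside the 2 groups compared, leaves the LFC as it was. Counts of calls moved more, and are given here without the share of all genes under each setting. DESeq2 called 3 genes in F3vM3, 15 in F3v7, 11 in M3v7, 21 in M3v14 and 1 in the difference of F3v7 and M3v7. edgeR called 2 in M3v7, 0 in M7v14 and 4 in M3v14. A pseudocount of 5 gave 20 in M3v14. Quantile normalization, which moved the median LFC of all genes from 0.15 to −0.01 in F3v14 and from 0.24 to −0.04 in M3v14, left 0 in F3vM3, 0 in F3v7, 15 in F3v14, 2 in M3v7 and 1 in M7v14. With only the groups compared in the model there were 4 in F3vM3, 0 in F3v7, 11 in M3v7, 0 in M7v14 and 6 in M3v14. An adjusted p of 0.05 left 4 in F3v7, 2 in M3v7, 0 in M7v14 and 0 in M3v14. An unadjusted p of 0.05 gave 3 in F3vM3, 9 in F7vM7, 2 in F14vM14, 17 in F3v7, 3 in F7v14, 18 in M3v7, 11 in M7v14, 21 in M3v14, and 1, 8 and 1 in the differences of F3v7 and M3v7, F7v14 and M7v14, and F3v14 and M3v14. A further run left out F7 replicate 2 and M14 replicate 1 together, a pair picked from earlier results of these data for a trait not shown here. It leaves 1 library in F7, so its counts are not given. The calls in F3v7 and M7v14 and most of those in M3v14 did not hold in it. The cause of these shifts was not tested. Replicate numbers do not pair the libraries: over 35 pairs of libraries with the same number the median correlation of residuals was −0.046, compared with 0.008 over the 71 pairs with different numbers. A replicate block gave 0 calls in M7v14 and 5 in M3v14 and stayed within 1.5 times elsewhere.

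Leaving out each library in turn gave 0 to 6 calls in F3vM3, 0 to 11 in F3v7, 0 to 28 in F3v14, 0 to 8 in M3v7, 0 to 10 in M7v14, 0 to 19 in M3v14 and 0 to 1 in the difference of F3v7 and M3v7. Counts at an unadjusted p of 0.05, added after the data were seen, ran from 9 to 21 in F3v7, 14 to 28 in F3v14, 15 to 18 in M3v7, 16 to 22 in M3v14, 4 to 12 in M7v14 and 2 to 13 in F7vM7. With 2 or 3 libraries a group and totals from 2924715 reads, changes in the scarcest genes, inaF-B and ninaD, were the least certain.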

Other observations

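The level of each gene relative to ninaE was also followed, as the log2 of its normalized reads over those of ninaE, averaged over the libraries of a group and given without a test. For trpl it was −3.54 in F3, −3.57 in F7 and −3.52 in F14, and −3.43, −3.25 and −3.42 in M3, M7 and M14, a narrow range of group means for a gene that was itself downregulated in F3v14, M3v7 and M3v14. For trp it was −4.01, −4.14 and −4.37 in females and −3.98, −3.78 and −4.51 in males. The ratio of eys, whose product shapes the space between rhabdomeres, was −2.67, −1.67 and −1.21 in females and −1.77, 0.12 and −1.70 in males, and that of norpA −1.37, −1.01 and −0.89 in females and −1.51, 0.48 and −1.02 in males. In M7 the libraries ran from −1.33 to 1.52 for eys and from −0.88 to 1.67 for norpA. Without M7 replicate 1, the highest for both, the M7 means were −0.58 and −0.12, and without M7 replicate 2, the lowest, they were 0.84 and 1.16. These ratios set genes of different length against each other, so they are to be compared between groups and not between genes.

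Of the 19 genes downregulated in M3v7, 7 belong to the 36, and Rh5 and Pdh belong to the other lists. The remaining 10, named here after their values were seen, were CG7214, Acp1, Nplp3, CG6870, pkm, CG4842, Culd, SmydA-8, CG40485 and Act79B, with LFCs from −4.67 for CG7214 to −1.73 for Act79B.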
